A study of Mus musculus with 8 samples.

Results

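The B cells described here were the droplets to which the authors' deposited annotation gave the cell type B_cells, in single cell RNA sequencing of mouse pancreatic islets. They were 122 of the 6959 annotated cells, and 113 of them came from the vehicle library and 9 from the FAKi library. Wild-type mice, aged 6 to 12 weeks at the start, had received either PF-562271, an inhibitor of focal adhesion kinase (FAKi), or vehicle, and islets were handpicked 10 days after the treatment ended. The study's methods give 50 mg/kg by oral gavage with 2 doses a day, and a course of 3 weeks in its other mouse experiments, while the strain and the length of treatment of these mice are not given in the sources used here. Each library pooled the islets of 5 mice, and the 8 samples of the series are 4 sequencing lanes of each of 2 libraries. There was therefore 1 library per condition, no test across samples was possible, and all intervals given (95%) cover counting error only. T cells (168 vehicle, 28 FAKi) and macrophages (129 vehicle, 55 FAKi) of the same annotation served as the comparison.

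B cells are lymphocytes that carry an immunoglobulin on their surface as antigen receptor, held and relayed by the CD79A and CD79B chains. They present antigen on MHC class II, for which CD74 is the invariant chain, and MS4A1 (CD20) marks them from the immature stage up to the plasma cell, which secretes antibody instead. Mature naive follicular cells carry IgM together with IgD, while B-1 and memory cells often have lost IgD.

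The 4 genes that mark these cells are Cd79a (chr7:24897381-24902197, plus strand), Cd79b (chr11:106311341-106314762, minus strand), Ms4a1 (chr19:11249675-11266241, minus strand) and Cd74. Positions are those of GENCODE vM21 on GRCm38, the assembly also called mm10. Cd79a was detected in more vehicle B cells than Cd79b or Ms4a1, and the bases just before its GENCODE start (chr7:24897247-24897380, plus strand, RefSeq promoter table, GRCm38.p6) are shown because motifs of 3 B cell factors were searched in its promoter.

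Cd79a: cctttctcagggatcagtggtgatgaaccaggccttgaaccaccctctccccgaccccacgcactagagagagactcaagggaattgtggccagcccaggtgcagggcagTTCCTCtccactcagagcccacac

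Capitals mark TTCCTC, the reverse complement of the PU.1 core GAGGAA, at base 111 of the 134 bases. Of the 20 genes that ranked highest in B cells against both T cells and macrophages (named further on), 10 had an entry in the promoter table, and both strands were searched. GAGGAA or TTCCTC was found in the 250 bases before the RefSeq start of 3 of 10 genes (Cd79a, Ebf1 and Fcmr), and in 23.25% of all 32851 promoters. The octamer ATTTGCAT or ATGCAAAT was found in 1 of the 10 (Vpreb3) and in 1.60% of all. The palindromic EBF motif was found in 0 of the 10 and in 0.779% of all, which says nothing about binding of the factor. A match is a run of letters and not a bound site.

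The study named the cell classes from marker genes and reference data, so the markers' levels in the class are in part built in. Cd79a was detected in 112 of 113 vehicle B cells (0 to 67 UMIs in a cell, median 12), Cd79b in 107 (median 6, highest 47), Ms4a1 in 102 (median 4, highest 31) and Cd74 in 113 (median 56, highest 280). In T cells the same genes were seen in 4, 7, 3 and 18 of 168 cells, and in macrophages in 4, 16, 1 and 120 of 129. The median depth was 4137 UMIs in vehicle B cells, 3763.5 in T cells and 7423 in macrophages. Genes that define myeloid and T cells were at or near 0 in the vehicle B cells: Lyz2 (lysozyme of myeloid cells) was seen in 0 of 113 cells (3 cells would be 2.65%, and the exact upper bound is 3.21%, both of cells with a UMI and not of cells expressing the gene), C1qa was seen in 2 cells and Cd3e in 3. Xcr1, a chemokine receptor gene of the dendritic cell list, also had 0 UMIs.

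Cd79a alone did not separate B cells from β-cells. It was detected in 352 of 1076 vehicle β-cells (32.7%), against 7 (0.651%) for Cd79b and 1 (0.0929%) for Ms4a1. The β-cells were deeper, with a median of 30792.5 UMIs, and after thinning every cell to 1000 UMIs Cd79a was detected in 3.39% of β-cells and in 92.8% of B cells. In endothelial cells, at a median of 5752 UMIs, Cd79a was detected in 14 of 543 cells (2.58%), and in 0.566% after thinning. Requiring both Cd79a and Cd79b left 119 cells in the vehicle library, of which 107 were annotated B cells, 4 β-cells, 3 endothelial cells, 3 T cells and 2 macrophages.

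The 9 B cells of the FAKi library did not all carry B cell genes. In 4 of them an immunoglobulin light chain was detected, with 16, 25, 47 and 44 Igkc UMIs at depths of 2095, 3138, 3978 and 7645 UMIs. The same 4 cells held 3, 1, 10 and 8 UMIs of Cd79a, 0, 5, 9 and 10 of Cd79b, 12, 42, 55 and 145 of Cd74, and 2, 3, 5 and 1 of Ighd, and none held Xcr1. The other 5 cells (4819, 8784, 14630, 15238 and 16414 UMIs) had 0 UMIs of Igkc, Iglc2, Cd79b, Ms4a1 and Ly6d, and Cd79a was seen in 1 of them with 1 UMI. Instead they held 9, 10, 12, 6 and 7 UMIs of Xcr1, 116, 128, 529, 247 and 415 of Cst3 (cystatin C, abundant in antigen-presenting myeloid cells) and 2, 2, 3, 1 and 2 of Flt3, the receptor of a dendritic cell growth factor. Ighm was at 2, 2, 0, 1 and 2 UMIs in them. Cd74, which macrophages also held, was at 80, 172, 309, 260 and 241 UMIs in them. Of the 4 markers, Cd79a, Cd79b and Ms4a1 thus went against the label of these 5 cells and Cd74 did not, and they are called the FAKi cells without light chain. None of the 5 was called a doublet.

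**Figure D1:**
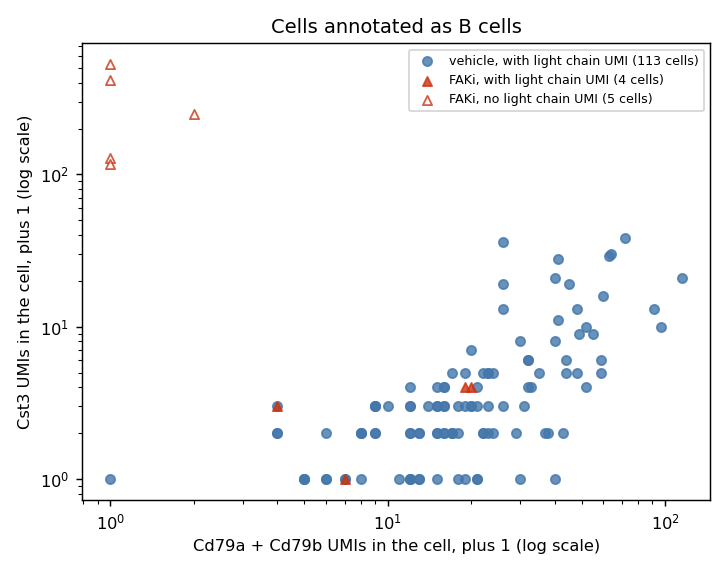
Every cell annotated as a B cell, by its Cd79a plus Cd79b UMIs (x, plus 1, log scale) and its Cst3 UMIs (y, plus 1, log scale). The 5 FAKi cells without light chain (open triangles) hold 116 to 529 Cst3 UMIs and 0 or 1 UMI of Cd79a and Cd79b, while the highest Cst3 count in a vehicle B cell (circles) is 37 UMIs.

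The genes highest in the 5 FAKi cells without light chain over the vehicle B cells were led by Lyz2, Alox5ap and Mpeg1, a comparison that crosses libraries. Lyz2 had 50 UMIs in 4 of the 5 cells and 0 in vehicle B cells. Alox5ap, which activates 5-lipoxygenase, stood at 1085 CPM, the usual count of a gene per fixed total of UMIs in the summed cells, against 3.16 CPM, and Mpeg1, a perforin-like protein of macrophages and dendritic cells, at 952 against 3.16 CPM. Naaa was 69.8-fold higher (40.3 to 129) and Cst3 30.4-fold higher (27.5 to 33.8), with 1435 UMIs in the 5 cells against 499 in the 113. Irf8, a transcription factor of both lineages, was 9.91-fold higher (7.64 to 12.8). Of the 10 genes of the dendritic cell list, Xcr1 (44 UMIs), Flt3 (10), Clec9a (7), Zbtb46 (5), Bst2 (4) and Tcf4 (3) were detected in the 5 cells, and the vehicle B cells had 0, 1, 0, 1, 28 and 121 UMIs of these. Ly6d of the same list had 0 UMIs in the 5 cells and 1042 in vehicle B cells, Ccr9 had 0 and 3, and Cd209a and Siglech were at 0 in both. Cells with Xcr1 were also found among the macrophages (8 vehicle, 3 FAKi) and T cells (1 vehicle, 2 FAKi), and in 1 acinar and 1 delta cell of the vehicle library.

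The share of B cells differed between the libraries. They were 2.99% (2.47 to 3.59) of 3776 vehicle cells and 0.283% (0.129 to 0.536) of 3183 FAKi cells. With only the 4 FAKi cells that held a light chain the FAKi share was 0.126%, and all 113 vehicle cells held one. Cells of any class with both Cd79a and Cd79b were 3.15% (2.62 to 3.76) of the vehicle library and 0.0943% (0.0194 to 0.275) of the FAKi library. Of endothelial and immune cells alone, B cells were 11.9% (9.87 to 14.1) in vehicle and 2.49% (1.15 to 4.68) in FAKi. T cells were also a smaller share of the FAKi library (0.880% against 4.45%), as were macrophages (1.73% against 3.42%). Of endothelial and immune cells, T cells were 7.76% in FAKi and 17.6% in vehicle, while macrophages were 15.2% in FAKi and 13.5% in vehicle. Each library is a single pool of mice, so treatment and preparation cannot be told apart.

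The vehicle B cells held 633504 UMIs in all, 838 to 19765 in a cell, with 469 to 4625 genes (median 1515) and a median of 6.34% mitochondrial UMIs. No B cell shared its barcode with a cell of the other library, where 4 barcodes were shared in all. Scrublet called 6 of the 113 doublets (68 of all vehicle cells). Ins2, the abundant hormone transcript of β-cells, was found in all 113 B cells, 168 T cells and 129 macrophages, at medians of 13, 14 and 17 UMIs. Insulin took a median of 0.423% of UMIs in B cells, 0.543% in T cells and 0.306% in macrophages. No vehicle B cell exceeded 5% insulin UMIs, where 5 T cells and 14 macrophages did.

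Against T cells and macrophages of the vehicle library, the vehicle B cells stood apart by the antigen receptor, its signalling chain and the transcription factors of the lineage. UMIs were summed over the cells of each class, expressed as CPM, and compared as the log2 ratio of CPM + 1, and a gene was counted as higher or lower past a 2-fold difference. Over T cells 273 of 4170 genes with at least 50 UMIs were higher (6.55%) and 505 lower (12.1%), and over macrophages 488 of 4267 were higher (11.4%) and 689 lower (16.1%). Of 3622 genes that could be compared with both, 159 (4.39%) were higher and 157 (4.33%) lower than both. The median gene differed by -0.15 from T cells and 0.11 from macrophages on the log2 scale. These counts come from 1 library and were not tested.

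**Figure D2:**
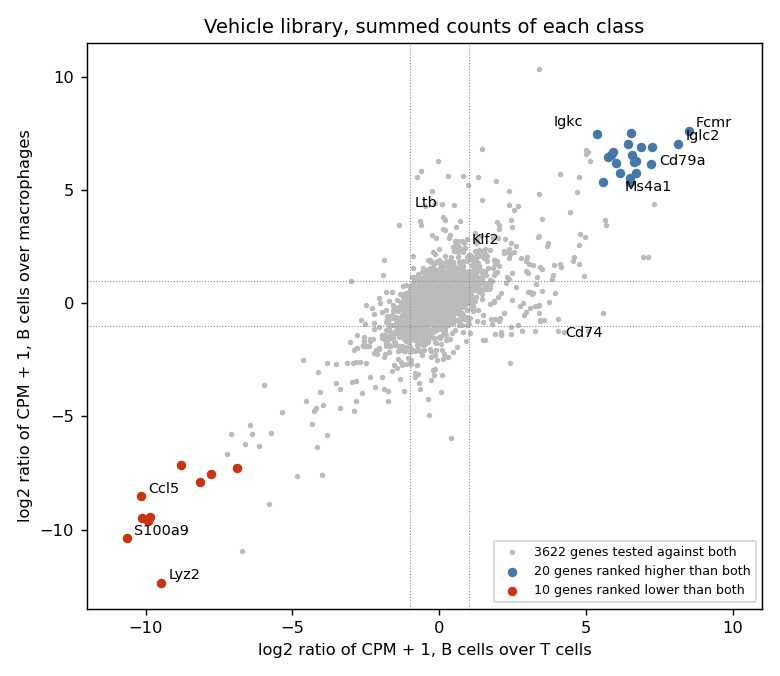
Each point is a gene by its log2 ratio of CPM + 1 in vehicle B cells over T cells (x) and over macrophages (y), with 2-fold differences dotted. The 20 genes highest against both, Fcmr and Iglc2 first, lie at the upper right, and Cd74 lies right of the dotted line on x and below 0 on y.

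The gene with the highest smaller ratio was Fcmr, the receptor for the constant part of IgM, with 360 CPM in B cells, 228 UMIs in 80 cells, 0 UMIs in T cells and 1 UMI in macrophages. It was at least 118-fold higher than in T cells, taken against a floor of 3 UMIs over the class. Cd79a stood at 2786 CPM (2658 to 2919), 162-fold (101 to 278) above T cells and 124-fold (84.8 to 188) above macrophages. Cd79b was 95.5-fold (58.5 to 168) and 47.7-fold (34.6 to 67.5) higher, and Ms4a1 75.4-fold (44.6 to 139) and 55.8-fold (36.9 to 88.7) higher. Ly6d, a surface protein of the lineage, was 62.4-fold and 110-fold higher.

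Pou2af1, the coactivator that works with octamer-binding factors, was detected in 49 B cells and at 0 UMIs in T cells and macrophages, at least 38.4-fold and 46.7-fold higher against the floor. Vpreb3 had 59 UMIs in 29 B cells and 0 in the other classes, at least 30.6-fold and 37.2-fold higher. Ebf1 and Pax5, which set and hold B cell identity, were 95.9-fold (48.3 to 223) and 96.5-fold (26.2 to 806) higher than in T cells and 156-fold (71.0 to 426) and 117-fold (31.8 to 980) higher than in macrophages. Ebf1 was found in 100 of 113 B cells and Pax5 in 71. Tnfrsf13c, the BAFF receptor that keeps mature B cells alive, was found in 66 B cells, 1 T cell and 2 macrophages. Bank1, an adaptor of receptor signalling, was 66.9-fold (30.3 to 184) and 122-fold (47.1 to 452) higher. Gm31243, a gene model without a name, was found in 51 B cells, 1 T cell and 2 macrophages.

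Among the 24 genes of the receptor complex and its proximal signalling, 18 of 22 compared were higher than in T cells and 0 lower (median log2 ratio 3.62, or 5.80 after thinning to 1000 UMIs). Against macrophages 13 of 23 were higher and 3 lower (median 1.06, or 0.058 over the 9 FAKi cells, 5 of them without light chain). The kinases of the pathway differed in their macrophage ratios. Blk had 101 CPM and was at 0 UMIs in macrophages. Syk was 34.9-fold (16.6 to 88.3) above T cells and 2.29-fold (1.80 to 2.91) above macrophages. Lyn was 11.03-fold (5.995 to 22.2) above T cells, and 0.915 times (0.697 to 1.19) the macrophage level. The inhibitory receptors Cd22 and Siglecg were higher than in both classes, with Cd22 at 0 UMIs in T cells and 23.7-fold (11.6 to 56.3) above macrophages, and Cd72 was 49.8-fold above T cells and at 0.431 times (0.323 to 0.568) the macrophage level.

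Surface proteins outside the receptor were higher than in T cells for 13 of 17 compared (median 3.49) and than in macrophages for 13 of 18 (median 3.40), and 0 were lower in either. Cd37, a tetraspanin, was found in 108 of 113 B cells at 849 CPM, 5.23-fold (4.38 to 6.28) above T cells and 20.8-fold (15.5 to 28.5) above macrophages. Ltb, the lymphotoxin chain by which lymphocytes shape lymphoid tissue, was 14.5-fold (10.9 to 19.6) above macrophages and 1.09 times (0.962 to 1.24) the T cell level. Of 22 transcription factors compared with T cells, 12 were higher and 1 lower (median 1.44), and of 21 compared with macrophages 15 were higher and 1 lower (median 1.60). Over the 9 FAKi cells, 5 of them without light chain, these medians were 3.20 and 0.87. Spib was 73.9-fold (19.9 to 619) and 13.8-fold (7.72 to 26.9) higher, and Mef2c 18.4-fold (12.5 to 28.1) and 3.04-fold (2.55 to 3.64). Klf2, which keeps lymphocytes recirculating, stood at 2071 CPM, 1.82-fold (1.68 to 1.97) above T cells and 5.46-fold (4.90 to 6.09) above macrophages.

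Genes of the MHC class II pathway were higher than in T cells, and H2-DMb2 and H2-Ob also higher than in macrophages. Of 12 genes compared, 12 were higher than in T cells (median 3.45), while against macrophages 2 were higher and 3 lower (median -0.56). Over all 9 FAKi cells the median against macrophages was 0.53, and the 5 without light chain held 59885 of their 76741 UMIs. In the T cell class 1 cell held 588 of 720 Cd74 UMIs, and the list median over T cells was 5.36 by the mean of each cell's CPM and 5.56 after thinning. Cd74 stood at 12087 CPM in B cells and 19318 CPM in macrophages, a ratio of 0.626 (0.610 to 0.642), H2-Aa at a ratio of 0.577 (0.554 to 0.601) and H2-Ab1 at 0.428 (0.408 to 0.449). The 3 lower genes were H2-Ab1, H2-DMb1 and Ctss. The higher genes were H2-DMb2, 6.015-fold (4.88 to 7.45), and H2-Ob, the β chain of the DO molecule that restrains peptide loading, 3.66-fold (2.54 to 5.35). Ctss, the protease that trims the invariant chain, was at 0.161 times (0.140 to 0.186) the macrophage level. Of MHC class I genes 0 of 13 were higher and 1 lower against either class (medians -0.30 and -0.22). Of all genes 6.55% were higher and 12.1% lower than in T cells, and 11.4% and 16.1% than in macrophages. Over T cells the MHC class I median was -0.84 by the mean of each cell's CPM and -1.08 after thinning to 1000 UMIs. Over the same 9 FAKi cells the medians were 1.76 and 0.75. Of costimulatory genes 3 of 3 were higher than in T cells, and 1 of 5 was higher and 1 lower than in macrophages. Cd86 was 9.12-fold (5.14 to 17.4) above T cells and 0.872 times (0.663 to 1.14) the macrophage level, and Cd83 8.79-fold (6.18 to 12.8) and 1.41-fold (1.17 to 1.69) higher.

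**Figure D3:**
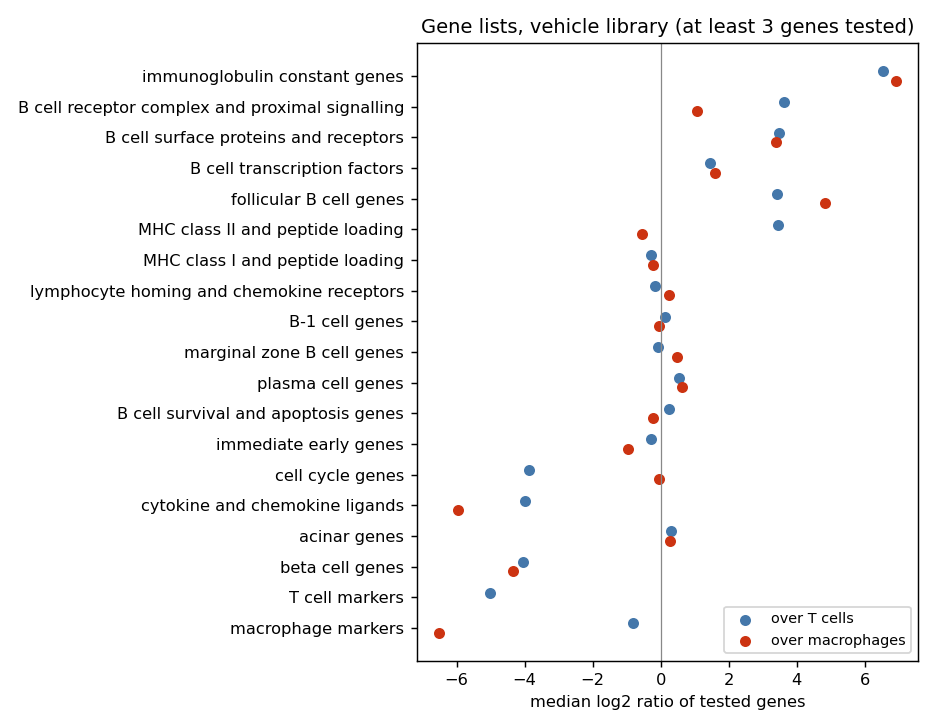
Median log2 ratio of the compared genes of each list, vehicle B cells over T cells (blue) and over macrophages (red), for lists with at least 3 genes compared. The MHC class II list lies at 3.45 over T cells and -0.56 over macrophages, and the immunoglobulin list above 6 over both.

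Of 15 homing receptors compared with T cells 1 was higher and 2 lower (median -0.18), near the 6.55% and 12.1% of all genes. Over the 9 FAKi cells, 5 of them without light chain, the median was 2.70. Of 18 compared with macrophages 8 were higher and 5 lower (median 0.24, or -0.36 after thinning), where 11.4% and 16.1% of all genes were. Ccr7, the receptor that draws lymphocytes into lymph nodes, was found in 74 B cells and stood 1.36-fold (1.11 to 1.68) above T cells and 2.22-fold (1.78 to 2.77) above macrophages. S1pr1, the egress receptor, was 1.16 times (0.846 to 1.57) the T cell level and 14.2-fold (7.31 to 30.8) above macrophages. Ccr2 was at 0 UMIs in B cells, at least 24.6-fold lower than in T cells and 32.6-fold lower than in macrophages. Cytokine and chemokine genes were lower in 5 of 7 compared with T cells and higher in 0, where 12.1% and 6.55% of all genes were. They were lower in 8 of 10 compared with macrophages and higher in 1 (Ltb), where 16.1% and 11.4% of all genes were. Ccl5 was at 0 UMIs in B cells. Such a gene reached the minimum of UMIs through the other class alone and could only be lower.

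Cell cycle genes were lower than in T cells in 14 of 17 compared and higher in 0, where 12.1% and 6.55% of all genes were. Against macrophages 3 of 9 were lower, where 16.1% of all genes were. Of the 20 genes listed, 17 reached the minimum of UMIs with T cells and 9 with macrophages. Some thus passed it only with the UMIs of T cells, which favours a call of lower for these genes. The median cell held 932 CPM of the listed cell cycle genes in B cells, 1057 in T cells (highest 16965) and 620.0 in macrophages. The list median over T cells was -3.87, against -2.29 by the mean of each cell's CPM and -1.95 after thinning. Mki67, made in dividing cells, was found in 2 of 113 B cells (3.16 CPM) against 19 of 168 T cells (261 CPM). Of 20 immediate early genes compared, 9 were lower and 2 higher than in macrophages, where 16.1% and 11.4% of all genes were, and 3 were lower and 1 higher than in T cells, near the 12.1% and 6.55% of all genes. Interferon-stimulated genes were lower than in T cells in 1 of 4 and than in macrophages in 2 of 5, and higher in 0 (medians -0.26 and -0.94). Of all genes 12.1% and 16.1% were lower. The interferon median over T cells was -1.13 after thinning and 1.55 over the 9 FAKi cells, 5 of them without light chain. Survival genes were higher than in T cells in 3 of 10 (Tnfrsf13c among them) and lower in 0, where 6.55% and 12.1% of all genes were. Than in macrophages 3 of 12 were higher and 3 lower, where 11.4% and 16.1% of all genes were.

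The 10 genes lowest against both classes were led by genes of neutrophil granules, and these came from few droplets of the comparison. S100a9 had 1 UMI in B cells and 4053 in T cells, but 1 T cell held 99.7% of the latter and 3 macrophages 74.3% of the macrophage UMIs. Ngp and Camp were at 0 UMIs in B cells, and 1 T cell held all 1100 and 916 UMIs found in that class. Lyz2 was at least 1100-fold lower than in macrophages, where 115 of 129 cells held it. C1qb and C1qc, the complement chains made by tissue macrophages, were at 0 UMIs in B cells and at 2543 and 1530 CPM in macrophages. Of 20 macrophage markers compared 20 were lower than in macrophages and 0 higher (median -6.50, or -5.72 with genes at 0 set to their bound), and of 19 T cell markers 18 were lower than in T cells (median -5.01, or -4.82). The T cell marker outside these 18 was Cd2, found in 63 B cells and 78 T cells. Of the same lists, 7 macrophage markers could be compared with T cells and 1 T cell marker with macrophages. Most members thus reached the minimum of UMIs through the class they mark, and the classes were named from marker genes. The counts of 20 of 20 and 18 of 19 were therefore largely built in and are no test of the label.

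Light chain RNA was present in all 113 vehicle B cells. Igkc (chr6:70726435-70726966) ranged from 0 to 7917 UMIs in a cell with a median of 35, and Iglc1, Iglc2 and Iglc3 together had a median of 10. A cell was called by the kind that made up at least 80% of at least 3 light chain UMIs. By this measure 55 cells were κ (48.7%, 39.2 to 58.3), 6 were λ (5.31%, 1.97 to 11.2) and 52 fell between. At a limit of 90% the κ cells were 12.4%. Iglc2 was detected in 110 of 113 cells at a median of 6 UMIs, against medians of 0 for Iglc1 and 2 for Iglc3. Iglc2 and Iglc3 are near-identical copies whose reads counting could split. In T cells Igkc was found in 9 of 168 cells and Iglc2 in 5, and in macrophages in 3 and 3 of 129. Of the V segments, 6 genes were in the table and summed to 19 UMIs in B cells and 0 in T cells and macrophages.

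**Figure D4:**
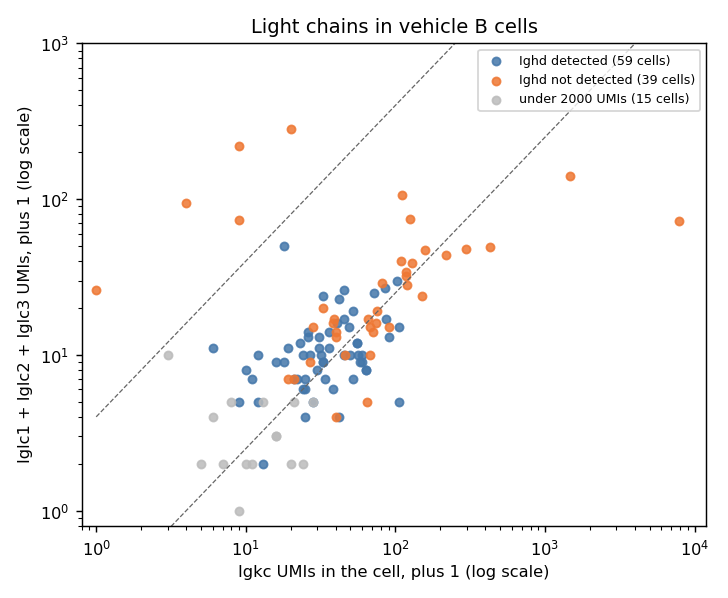
Igkc UMIs (x) and summed Iglc1, Iglc2 and Iglc3 UMIs (y) of each vehicle B cell, plus 1, on log scales, coloured by whether Ighd was detected, with cells under 2000 UMIs in grey and dashed lines where 1 kind is 4 times the other. The 5 λ cells with at least 2000 UMIs, all without Ighd, lie above the upper line at the left, and 1 cell with 7917 Igkc UMIs lies at the far right.

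Among heavy chains, Ighm (chr12:113418558-113422730) was detected in 111 of 113 cells (98.2%, 93.8 to 99.8) at a median of 11 UMIs, and Ighd (chr12:113406604-113416324) in 67 (59.3%, 49.6 to 68.4) at a median of 1. Thinned to 1000 UMIs, the shares were 91.9% and 34.2%. In T cells Ighm was found in 46 of 168 cells (12.7% thinned) and in macrophages in 65 of 129 (17.1% thinned), and Ighd in 2 and 2 cells. Switched isotypes were rarer. Ighg3 was found in 18 B cells (15.9%, 9.72 to 24.0) and in 0 of 168 T cells and 0 of 129 macrophages, but at 2 UMIs or more in 8 B cells and after thinning to 1000 UMIs in 1 of 111 (0.901%), Igha in 3 B cells and 3 T cells, and Ighg2b in 0 B cells (exact upper bound 3.21% of cells with a UMI). All 18 cells with Ighg3 also held Ighm. Ighg1, Ighg2c and Ighe were not analysed here.

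Detection of Ighd differed with depth, and above 2000 UMIs it was less frequent in deeper cells. It was found in 8 of 15 cells below 2000 UMIs, 33 of 38 from 2000 to below 4000, 22 of 35 from 4000 to below 8000 and 4 of 25 at 8000 or more. The cells with at least 2000 UMIs were described in 2 sets, 59 with and 39 without an Ighd UMI. This split was made after the values were seen, and it is a description without a test. The cells with Ighd had a median of 3793 UMIs (2051 to 18898) and 1 called doublet, and those without 8495 UMIs (2703 to 19765) and 5 called doublets.

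The set without Ighd was lower in 4 of 6 other follicular genes and higher in genes of the B-1 and plasma cell lists. Of 1517 genes with at least 50 UMIs, 86 (5.67%) were higher and 70 (4.61%) lower by 2-fold in the cells without Ighd. Of 6 follicular genes compared, Ighd left out, 4 were lower and 0 higher (median -2.36). Fcer2a, the low-affinity IgE receptor CD23, was found in 38 of 59 cells with Ighd and 6 of 39 without, a ratio without over with of 0.0827 (0.0365 to 0.165). Cr2, the complement receptor CD21, was found in 29 and 4 cells, and Ccr7 in 50 and 16. Thinned to 2000 UMIs, Fcer2a was found in 50.8% and 12.8% of cells and Ccr7 in 59.3% and 15.4%. Klf2 differed by 1.15-fold (1.03 to 1.29). Outside the list, Satb1, an organiser of lymphocyte chromatin, was found in 38 and 10 cells, Vpreb3 in 26 and 3, Cd72 in 27 and 7 and Tnfrsf13c in 42 and 20.

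All 4 B-1 genes that could be compared were higher in the cells without Ighd (median 2.46). S100a6, a calcium-binding protein, was 5.69-fold higher (4.67 to 7.003) and was found in 33 of 39 cells against 17 of 59, and after thinning in 79.5% against 25.4%. Vim was 2.64-fold (2.25 to 3.10), Anxa2 5.43-fold (2.79 to 11.8) and Bhlhe41, a transcription factor of B-1 cells, 5.95-fold (2.54 to 17.0) higher. Below the limit of 50 UMIs, Ccr1 was found in 15 cells without and 1 with Ighd, Zbtb32 in 14 and 3, Cd9 in 12 and 1 and Fcrl5 in 10 and 1, all of the same list, and Cd9 and Fcrl5 are also in the marginal zone list. Cd5 was found in 0 and 1, and Spn (CD43) in 4 and 2. Plac8 of the marginal zone list was 3.65-fold higher (2.84 to 4.75), while Cr2 of the same list was lower. Of 6 plasma cell genes compared 3 were higher without Ighd and 0 lower (median 1.19). These were Xbp1, 4.09-fold (2.19 to 8.32), Mzb1, 2.65-fold (2.15 to 3.28), and Jchain, with 777 of its 818 UMIs in 1 cell. Of the memory and age-associated list 2 genes could be compared, and 1 was higher without Ighd and 0 lower. This was Zeb2, a transcription factor, 8.68-fold higher (3.80 to 24.5) and found in 22 of 39 cells against 4 of 59. It reached 50 UMIs through the cells without Ighd (70 UMIs, against 6). Cd86 stood at a ratio of 0.957 (0.602 to 1.53). Below the limit, Ccr6 was found in 6 cells without and 16 with Ighd, and Pdcd1lg2 in 6 and 1.

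**Figure D5:**
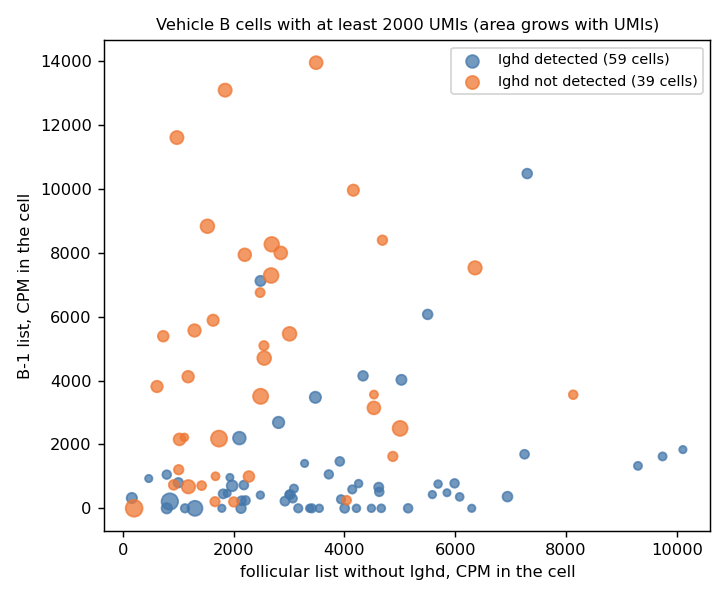
Summed CPM of the follicular list without Ighd (x) and of the B-1 list (y) in each vehicle B cell with at least 2000 UMIs, coloured by detection of Ighd. The B-1 list has a median of 3813 CPM in the cells without Ighd and 470 CPM in those with it, the follicular list 2200 and 3409 CPM, and the groups overlap on both axes.

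Ighg3 was seen in the set without Ighd and not in the other. All 18 cells with Ighg3 were among the 39 without Ighd, with 37 UMIs, and 0 UMIs were found in the 59 cells with Ighd, at least 9.18-fold lower against a floor of 3 UMIs. The Ighg3 cells had a median of 11332.5 UMIs. λ cells were 5 of the 39 without and 0 of the 59 with Ighd, and Iglc1 was 7.95-fold higher (5.62 to 11.6) without. Ighm stood at a median of 5242 CPM per cell without Ighd and 2277 CPM with it. Cd79a (0.929, 0.843 to 1.02), Ms4a1 (1.14, 0.969 to 1.33) and Ly6d (1.12, 0.988 to 1.28) had ratios near 1 between the sets. Called doublets, depth, detected genes and some immediate early genes moved with the split, and their part in it was not tested. Of 19 immediate early genes compared, Jun, Ier3 and Atf3 were higher without Ighd (Atf3 5.15-fold, 3.96 to 6.81), and Nr4a1 and Cd69 lower. Socs3 was 6.25-fold (3.92 to 10.5) higher. Without the called doublets the log2 ratios were 2.54 for S100a6, 2.42 for Bhlhe41 and -3.33 for Fcer2a, and among cells with at least 4000 UMIs (26 with, 34 without Ighd) 1.99, 2.53 and -4.21.

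Levels varied most among the vehicle B cells where 1 or a few cells held most of a transcript. For each of 1566 genes with at least 50 UMIs, the squared deviation of the cells from their depth-scaled mean was divided by its Poisson expectation. This variance ratio had a median of 1.33 and reached 2 in 385 genes (24.6%). The highest was Igkc (3889), followed by Gcg (3610), Ighm (1563) and Jchain (700.2). A single cell of 19765 UMIs held 7917 of 15006 Igkc UMIs (52.8%), 3258 of 6173 of Ighm and 777 of 819 of Jchain, the chain that joins IgM pentamers. Igkc and Ighm made up 56.5% of its UMIs, it held 9 of 18 UMIs of Sdc1 (CD138) and 4 of 14 of Prdm1, and 16 UMIs of Cd79a and 2 of Ms4a1. Without this cell Igkc stood at 11551 CPM in place of 23687 and Ighm at 4750 in place of 9744. The next cell held 1460 Igkc UMIs. Without the called doublets 13427 Igkc UMIs were left, so this cell was among the doublets. At least 1 Jchain UMI was found in 5 cells in all.

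Apart from Malat1, the other genes among the 15 with the highest variance were those of islet, ductal and acinar cells. Gcg (glucagon) was detected in 79 of 113 B cells at a median of 1 UMI, but 2 cells held 4788 and 1588 of its 6530 UMIs, the third held 8, and both of the 2 were called doublets. Ttr, Chga, Resp18 and Pcsk2 of endocrine cells had 36.5%, 70.1%, 71.4% and 61.7% of their UMIs in 1 cell. Spp1 and Clu of ductal cells were found in 10 cells each, with 97.2% and 97.5% in 5 cells. The acinar genes Try4, Ctrb1, Pnlip and Prss2 were spread more widely, in 63, 62, 45 and 46 cells with 65.3% to 69.3% of UMIs in 5 of them. Malat1 was found in every cell and had a ratio of 74.6. The acinar list differed from T cells and macrophages past 2-fold in 0 of 14 genes.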

How the data were processed

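Single cell libraries were prepared by the authors from handpicked islets with the 10x Chromium 3′ kit, and the deposited table holds raw counts of UMIs for 19945 genes, not normalized. The submitters' processing notes name Cell Ranger, Seurat 3.1 and mm10. The series text gives about 8500 sequenced cells, and the deposited files hold 6959. The percent of mitochondrial UMIs deposited by the authors reached at most 8.00%. Cell types were taken from the deposited annotation, which the authors made from Louvain clusters after SCRAN normalization and scanorama integration.

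For each class of a library, UMIs were added up and scaled to CPM (numpy 2.4.6, scipy 1.17.1). Intervals were exact (95%): Poisson for a level, conditional binomial for a ratio of levels, Clopper-Pearson for a share. They cover counting error only, and with 1 library per condition no p-value is given. Genes with at least 50 UMIs in the classes compared were used, with a pseudocount of 1 CPM. Doublets were called by Scrublet (scanpy 1.11.5) in each library and kept. Thinning drew UMIs without replacement and left out shallower cells, 2 of the 113 vehicle B cells at 1000 UMIs. The comparison and variance scripts were tested on simulated data.

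The genes named were the 20 highest and 10 lowest against both classes, the 5 highest and lowest of each comparison, the 15 with the highest variance ratio and members of 34 gene lists. The members and the lists were chosen with earlier results of these data known. The split by Ighd, its alternatives and the comparison of the 5 FAKi cells were added after seeing the data. Some genes are not reported here.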

Additional observations from a re-analysis of the deposited data

How the results depend on the processing

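No paired analysis was possible because the replicate numbers are sequencing lanes of 1 library per condition and the count table merges them. There was no replicate to leave out.

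Counts of genes past 2-fold depended on the minimum. At 20 UMIs per gene 466 were higher and 1248 lower than in T cells, and 912 and 1385 than in macrophages. In cells thinned to 1000 UMIs they were 49 and 69, and 83 and 120, with B cell marker medians of 7.62 and 6.43. Bhlhe41 there stood at -2.81 and -5.14 with the pseudocount of 1 CPM and without the floor of 3 UMIs, so no change of direction is established. By the mean of each cell's CPM the marker median over T cells was 7.34. Thinned shares were 1.98% for cells with Cd79a and Cd79b, 91.9% for Ighm and 34.2% for Ighd, and at 2 UMIs or more 33.6% for Ighd and 0 for Igha. With Cd79a or Cd79b alone the shares were 14.6% (vehicle) and 13.4% (FAKi), of endothelial and immune cells B cells were 11.9% and 2.49%, and with a light chain 0.126% of FAKi cells. The κ share at 90% was 12.4%.

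Without insulin-rich droplets the β-cell list medians turned to 0.0053 (T cells) and 0.23 (macrophages), and the median gene moved by -0.110 and -0.169. Over macrophages, other islet hormone genes turned to -0.18 without doublets, -0.049 thinned, -0.69 by the mean per cell and -0.083 without the cell richest in Igkc and the 2 richest in Gcg, and ductal genes to -0.94 without doublets. Without those 3 cells Jchain turned to -0.81 over T cells. Leaving out the 20 most abundant genes moved the median gene over macrophages by -0.157 and the higher share of genes past 2-fold from 41.5% to 31.2%.

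In the FAKi library all 9 cells annotated as B cells were summed, and the 5 without light chain held 59885 of their 76741 UMIs. In this sum 366 genes were higher and 308 lower than in T cells (54.3% higher, against 35.1% in vehicle), 187 higher and 284 lower than in macrophages, and the median gene over T cells moved by 0.381. Over T cells cytokines stood at 0.93, Bhlhe41 at -4.06, Ccr2 at 2.87 and Lyz2 at 4.59. The 50 Lyz2 UMIs all lay in the cells without light chain. Over macrophages hormones stood at -2.69, ductal genes at -3.84, Bhlhe41 at -4.06, Ccr2 at 1.498, Mki67 at 1.32, S100a6 at -2.90 and Syk at -0.72. With the 4 light chain cells alone the marker medians were 8.35 and 7.69, with 176 genes higher and 452 lower than in macrophages (28.0% higher, against 41.5% in vehicle). The median gene over macrophages moved by -0.684. Over T cells costimulatory genes stood at -2.64, Bhlhe41 at -4.06, Cd86 at -4.46 and S100a6 at -4.34, and over macrophages hormones at -1.85, ductal genes at -6.74, Bhlhe41 at -4.06, Cd72 at 0.11 and S100a6 at -8.94. The 4 cells held 16856 UMIs in all. Ratios of the FAKi library use the pseudocount of 1 CPM without the floor of 3 UMIs. For genes with few or 0 UMIs in the B cells they are not bounds, and no change of direction is established. The cause of the differences between the libraries was not tested.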
